A study of Mus musculus with 15 samples.

Results

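The hippocampus of mice that had been returned to free feeding after dietary restriction was compared with the hippocampus of mice still under restriction. The comparison used the DR-AL and the DR hippocampus libraries, 2 of the 15 libraries of the series, on every locus with a gene name. Of 23589 named loci among 33603 loci, 18308 had at least 1 count in the pair and were tested. The AL hippocampus library is given beside them as a value and was not tested.

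All mice were male C57BL/6 animals. AL mice were fed ad libitum and were 5 months of age. DR mice received 40% less food than AL mice for 1 month from 4 months of age, and were also 5 months of age. DR-AL mice had the same month of restriction, then ate ad libitum for 2 months, and were 7 months of age. Each tissue of each diet group gave 1 strand-specific library, made from the pooled RNA of 5 mice and depleted of ribosomal RNA. The comparison addresses which hippocampal transcripts stand at another level once restriction has ended. Because the refed mice were 2 months older, refeeding and age cannot be told apart. With 1 library a side there is no measure of the spread between pools or mice, so each test compares 2 libraries and not the diets.

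The hippocampus holds granule cells of the dentate gyrus and pyramidal cells of the CA fields, set among interneurons, glia and vessels. It lies against the choroid plexus of the lateral ventricle, the epithelium that makes cerebrospinal fluid and secretes transthyretin. Feeding and food restriction act on the brain through hormones, the daily clock and nutrient supply, and hippocampal neurons respond to activity with a rapid burst of immediate early genes.

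Counts on named loci were 40500130 in the AL library, 31224299 in DR and 25159857 in DR-AL. Levels are given as CPM, the counts scaled to a total of 1000000 on named loci, and triplets of values follow the order AL, DR, DR-AL. Triplets given as counts are not scaled for the unlike totals, so their order need not be the order of levels. A count of 0 allowed up to 0.0741, 0.0961 and 0.119 CPM, from a limit of 3 counts. The 10 genes with the most counts took 3.34%, 3.13% and 3.30% of each library, led by the ribosomal precursor Rn45s.

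Markers of hippocampal neurons were present in all 3 libraries. The 15 genes of the dentate granule cell list summed to 1106, 1090 and 1053 CPM, against 690 in the DR hypothalamus library. The 10 genes of the CA1 pyramidal cell list summed to 1072, 1069 and 1008 CPM, against 345 in the DR hypothalamus. Neurod6, a transcription factor of forebrain excitatory neurons, stood at 261, 254 and 186 CPM. Its DR hypothalamus count was 35. The CA3 pyramidal cell list summed to 1687 CPM in the DR hippocampus, against 844 in the DR hypothalamus. The CA2 list went the other way, at 412, 380 and 431 CPM against 457 in the DR hypothalamus. The granule cell, CA1 and CA3 sums and Neurod6 fit the hippocampus label, and the CA2 sum does not tell the tissues apart.

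One gene has values that cannot be read as a level. Scd1, which encodes a fatty acid desaturase, had 8533 counts in the AL hippocampus, was listed at 0 in DR and had 5683 counts in DR-AL. It was listed at 0 in all 5 DR libraries, fat included, where AL had 756056 counts and DR-AL 392180. No other named locus was at 0 in every DR library with at least 100 counts in each other library, and none showed this for AL or DR-AL. Scd1 is counted among the genes past the threshold, and no fold is given for it.

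Of the 18308 genes, 925 (5.05%) passed an adjusted p under 0.05 in the Z test of the study's methods and its fold threshold, a rise of 25% or a fall of 20%. Higher levels in DR-AL were called for 687 genes (3.75%) and lower levels for 238 (1.30%), so that 74.3% of the called genes were higher after refeeding. Most genes stood close to equal. Over 15050 genes that averaged 10 counts or more, the median log2 fold change of DR-AL over DR was 0.01, with quartiles of -0.09 and 0.13. Among the 598 called genes that averaged 100 counts or more, 474 were higher and 124 lower. Large folds at such depth were rare, with 24 genes at least 2-fold higher and 1 at least 2-fold lower. The call holds only counting error. With a coefficient of variation of 0.1 allowed between pools in the exact test of edgeR, 54 genes were higher (0.295%) and 4 lower (0.0218%). With the variation of 0.0701 estimated over the 3 hippocampus libraries as if they were replicates, which counts diet effects as variation, the counts were 122 (0.666%) and 16 (0.0874%). These are called the 0.1 and the estimated variation here.

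**Figure D1:**
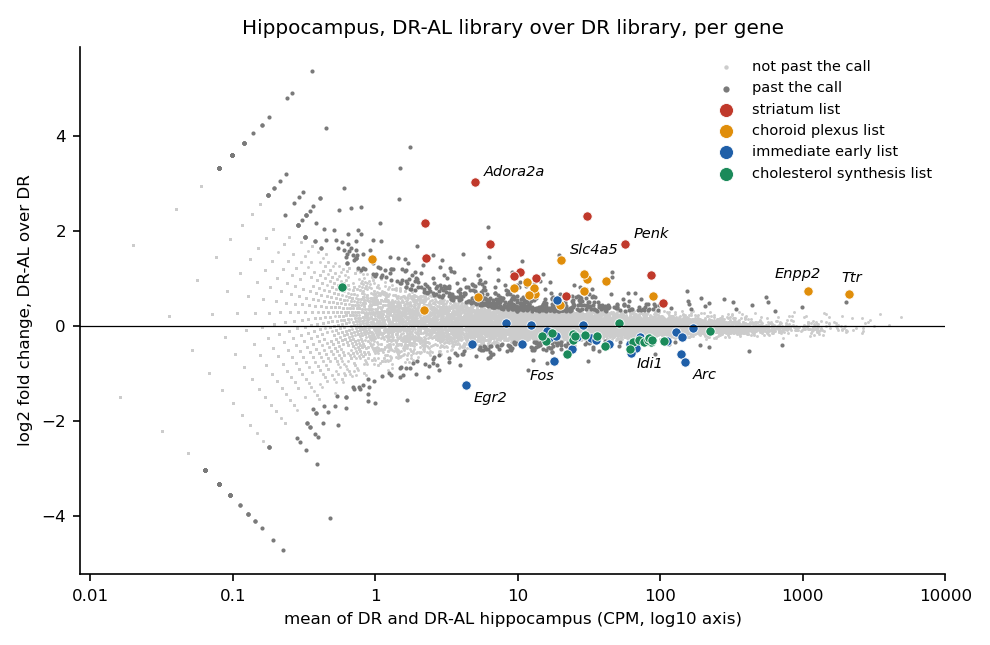
Each point is a gene, with the mean CPM of the DR and DR-AL hippocampus libraries on a log10 axis and the log2 fold change of DR-AL over DR on the other axis. Dark points passed the call, and colours mark 4 gene lists: the striatum list reaches 3.02 for Adora2a, while Arc, Fos and Egr2 lie under 0.

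The striatum list holds genes of medium spiny neurons, the dopamine-receiving output cells of the striatum. All 12 of its genes found in the table were higher in DR-AL, against 3.75% of all genes, and their median log2 fold change was 1.29. Like the other lists, it was chosen with earlier results of these data known. The share therefore describes these libraries and is no independent support. Adora2a encodes an adenosine receptor, and its locus, XLOC_002260, is listed at chr10:74779653-74797533 (mm9, plus strand). It had 44, 34 and 226 counts, or 1.09, 1.09 and 8.98 CPM. The log2 fold change was 3.02, with an exact Clopper-Pearson 95% interval of 2.52 to 3.61, and here as for all intervals only counting error is covered. The AL and DR libraries were level, and DR-AL alone stood high.

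Penk, which encodes the precursor of the enkephalins, was at 26.8, 26.3 and 87.0 CPM, a log2 fold change of 1.73 (1.61 to 1.85). The receptors and their signalling partners moved together. The dopamine D2 receptor gene Drd2 had 102, 92 and 245 counts and a log2 fold change of 1.72, and the D1 receptor gene Drd1a had 244, 202 and 358 counts and a log2 fold change of 1.13. Ppp1r1b encodes the dopamine-regulated phosphatase inhibitor DARPP-32. Its counts were 2555, 1747 and 2953, with a log2 fold change of 1.07 (0.98 to 1.16). The homeobox gene Six3 had 50, 25 and 92 counts and rose by 2.17 on the log2 scale. The smallest rises were those of the phosphodiesterase gene Pde10a, at 84.3, 87.7 and 122 CPM, and of Rgs9, by 0.48 and 0.62.

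Tac1, the gene of the substance P precursor, had 331, 277 and 449 counts and rose by 1.01 (0.79 to 1.23). Markers of both branches of striatal output, Drd2 with Adora2a and Drd1a with Tac1, were thus among the rises. In sum the list stood at 233, 225 and 474 CPM. Pde10a had the most counts, no member was at 0 in any of the 3 libraries, and the part of striatal tissue in the result was not tested. In pooled tissue, more cells of a type and more RNA per cell cannot be told apart. With a variation of 0.1 between pools, 10 of the 12 stayed past the call, all but Pde10a and Rgs9. With the estimated variation 11 did, all but Pde10a.

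Among all genes averaging 100 counts or more, the largest rises held other genes that are not in that list. Scn4b, a sodium channel beta subunit, was at 33.2, 28.5 and 62.9 CPM, a log2 fold change of 1.14 (1.02 to 1.26). Rxrg, which encodes the retinoid X receptor gamma, had 147, 138 and 255 counts and a log2 fold change of 1.19. Ecel1, a membrane peptidase gene, had 108, 74 and 253 counts and rose by 2.08 (1.71 to 2.48). Baiap3 rose by 1.37, Pld5 by 1.21 and Otof, which encodes otoferlin, by 1.14. Of the 15 genes with the largest log2 fold changes at this depth of 100 counts or more on average, Scd1 included, 4 were in the striatum list, 1 in the choroid plexus list, and 5 in any list.

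In the thalamus list 1 of 15 genes was higher, against 3.75% of all genes. This was Zic1, a zinc finger transcription factor gene, at 25.9, 19.7 and 35.1 CPM, which passed at both variations between pools. The list's median log2 fold change was 0.13 and its sum was 263, 239 and 260 CPM. Of 14 cerebral cortex genes none passed, with a median of 0.00 and sums of 385, 360 and 348 CPM.

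The hypothalamus list had low counts throughout. It summed to 7.88, 6.66 and 12.6 CPM, against 1121 CPM in the DR hypothalamus. Of its 14 genes 6 were called higher and 1 lower, against 3.75% and 1.30% of all genes, with a median of 0.92. That median was lower with FPKM and with a pseudocount of 5, as the closing section gives. Hdc had the most counts in AL and DR, and Trh in DR-AL. Trh, the gene of thyrotropin-releasing hormone, had 35, 7 and 82 counts, a log2 fold change of 3.76 (2.75 to 5.22), and was the 1 member called at either variation between pools. Otp and Sim1, transcription factors of hypothalamic neurons, were at 0 in DR with 9 and 6 counts in DR-AL, and the lower ends of the log2 intervals were 1.29 and 0.55. Oxt, the oxytocin gene, was at 12 counts in DR against 0 in DR-AL, with an upper end of -1.16, and Hcrt had 1 and 0. The part of hypothalamic tissue in these counts was not tested.

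Of 17 genes of the choroid plexus list, 16 were higher in DR-AL, against 3.75% of all genes, with a median log2 fold change of 0.74. This list too was chosen with earlier results of these data known. The transthyretin gene Ttr, which encodes the carrier of thyroid hormone and retinol in cerebrospinal fluid, had 109059, 51236 and 65481 counts. In CPM these were 2693, 1641 and 2603, and the log2 fold change was 0.67 (0.65 to 0.68). The difference of 962 CPM was the largest rise in CPM of any called gene. DR was the low library, and the AL and DR-AL libraries lay close together.

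Enpp2 encodes autotaxin, a secreted enzyme that makes lysophosphatidic acid, and its locus XLOC_010553 is listed at chr15:54670408-54784432 (mm9, minus strand). It stood at 1359, 809 and 1354 CPM, a log2 fold change of 0.74 (0.72 to 0.77). Kl, the klotho gene, was at 96.5, 69.2 and 108 CPM and rose by 0.64 (0.55 to 0.72). Ttr, Enpp2 and Kl all had their lowest level in DR. Slc4a5, a bicarbonate transporter of this epithelium, was at 23.9, 11.1 and 29.3 CPM and rose by 1.39 (1.21 to 1.58). The coagulation factor gene F5 rose by 1.09, the prolactin receptor gene Prlr by 0.99, Clic6 by 0.94 and the potassium channel subunit gene Kcne2 by 0.93. Aqp1, whose locus is merged with Fam188b and cannot be split from it, rose by 0.45. The transcription factor gene Otx2 had 395, 214 and 302 counts and rose by 0.81. Only Slc16a8, with 134, 61 and 62 counts, did not pass.

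Summed, the list stood at 4429, 2687 and 4374 CPM. Ttr had the most counts, no member was at 0, and the part of choroid plexus tissue in the result was not tested. With a variation of 0.1 between pools 5 genes stayed past the call, Clic6, F5, Kcne2, Prlr and Slc4a5, and with the estimated variation 13 did. Of 10 ependymal genes 2 were lower, Tmem212 and Ccdc153, against 1.30% of all genes, and none higher, with a median of 0.01. Of 13 meningeal fibroblast genes, Igfbp2 was higher and Slc22a6 lower, against 3.75% and 1.30% of all genes, with a median of -0.06. No ependymal or meningeal gene passed at either variation between pools.

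**Figure D2:**
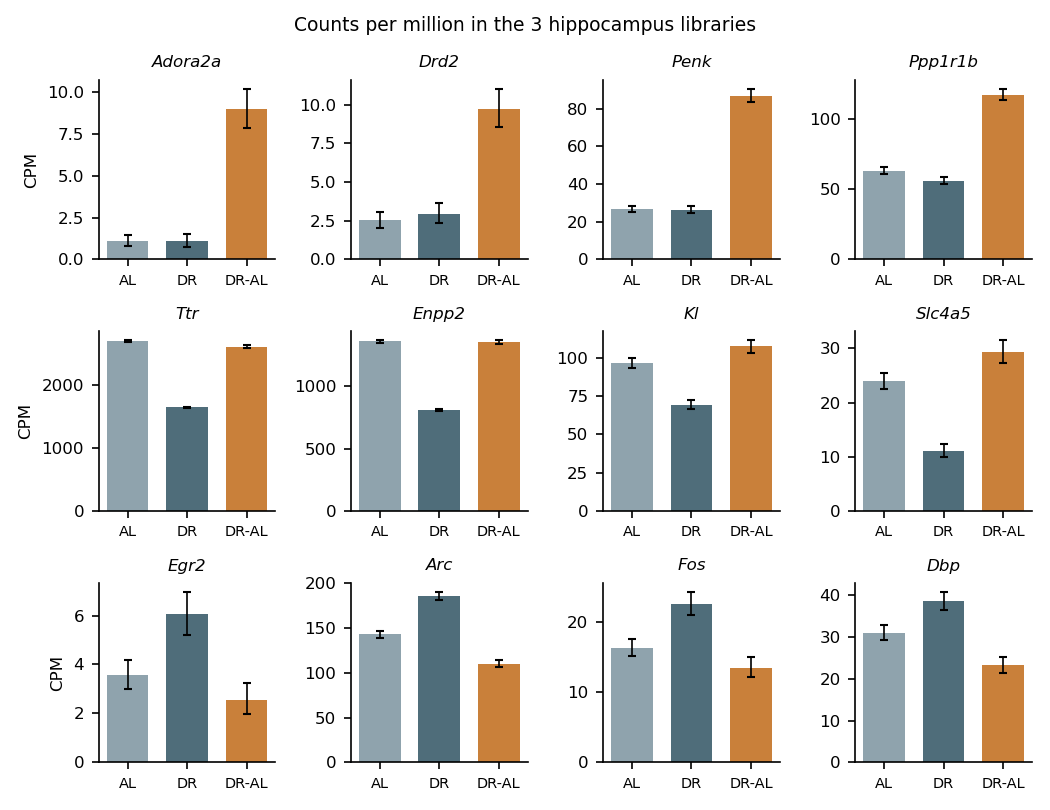
CPM of 12 genes in the AL, DR and DR-AL hippocampus libraries, each axis starting at 0, with exact 95% intervals that cover counting error only. The 4 striatum genes are highest in DR-AL, the 4 choroid plexus genes are lowest in DR, and Egr2, Arc, Fos and Dbp are highest in DR.

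Immediate early genes are switched on within minutes of neuronal activity, and many encode transcription factors. Of 28 such genes, 10 were lower in DR-AL and 1 was higher, against 1.30% and 3.75% of all genes. The median log2 fold change of the list was -0.26. Egr2, a zinc finger transcription factor gene at locus XLOC_002228, had 144, 189 and 64 counts. These were 3.56, 6.05 and 2.54 CPM, a log2 fold change of -1.24 (-1.68 to -0.83), the lowest of all genes averaging 100 counts or more. Arc, whose protein acts at synapses, was at 143, 186 and 110 CPM, a log2 fold change of -0.75 (-0.82 to -0.69). Fos, the classical marker of active neurons, was at 16.3, 22.6 and 13.5 CPM, a log2 fold change of -0.74 (-0.93 to -0.55).

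DR was the highest of the 3 libraries for each of these genes, with DR-AL under AL as well. Egr1 followed at 153, 168 and 112 CPM with a log2 fold change of -0.58 (-0.65 to -0.52), and the nuclear receptor gene Nr4a1 at 65.4, 74.0 and 50.0 CPM with -0.57. Dusp5, Junb, Npas4, Dusp6 and Ier5 also fell, by between 0.38 and 0.48 on the log2 scale. The other members of the same families did not all pass. Nr4a3 was at 83.8, 124 and 100 CPM and Egr3 at 124, 152 and 130 CPM, with log2 fold changes of -0.31 and -0.23. Fosb had 326, 527 and 398 counts and a log2 fold change of -0.09 (-0.28 to 0.10), so a difference was not detectable at this depth. Arl4d, which encodes a small GTPase, rose by 0.55. The list summed to 1375, 1687 and 1352 CPM, with Egr1, Arc and Homer1 the members with the most counts in the AL, DR and DR-AL library. At a variation of 0.1 between pools Egr2 alone stayed lower, and at the estimated variation Arc, Egr1, Egr2, Fos and Nr4a1 did.

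The promoters of genes that fell together were searched for elements known from the control of immediate early genes, in the 250 bases before each RefSeq start on GRCm38.p6 and on both strands. The cAMP response element TGACGTCA was in 1.55% of all 32851 windows and 1.77% of all genes, in 3 of 20 matched immediate early genes and in none of the 8 matched genes that fell. The CArG box, bound by serum response factor, was in 1.47% of windows and 1.62% of genes, and in 2 of the 20 genes, Egr2 and Dusp5, both among those that fell. The matches of both genes are printed with the box in capitals, from the plus strand at chr10:67537787-67537816, chr10:67537484-67537513, chr19:53529053-53529082 and chr19:53529063-53529092. The Dusp5 stretches overlap. A match is a description of the letters and not of a site in use.
Egr2, first window: gttcctcagtCCATATATGGgcagcgacgt
Egr2, second window: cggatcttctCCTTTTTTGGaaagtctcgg
Dusp5, first match: ggggaaatacCCATATTTGGccttatatgg
Dusp5, second match: ccatatttggCCTTATATGGgcactcacgt

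Of 20 genes of the daily clock 4 were lower, against 1.30% of all genes, and none higher, with a median log2 fold change of -0.08. Gm129, now named Ciart, encodes a repressor within the clock. It had 538, 482 and 204 counts, or 13.3, 15.4 and 8.11 CPM, a log2 fold change of -0.93 (-1.17 to -0.69). Dbp, a transcription factor gene driven by the clock, was at 31.0, 38.6 and 23.3 CPM, a log2 fold change of -0.73 (-0.87 to -0.59). The repressor genes Nr1d2 and Bhlhe40 fell by 0.34 and 0.33. The positive arm of the clock did not pass, with Arntl at 29.7, 31.0 and 33.4 CPM and Clock at 108, 112 and 118 CPM. Per1 had a log2 fold change of -0.26 (-0.35 to -0.18) and did not pass the fold. The hour at which tissue was taken is not in the labels, and its part in the result was not tested. At a variation of 0.1 Gm129 alone stayed past the call, and at the estimated variation Gm129 and Dbp.

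The E-box CACGTG, the element bound by the clock's activators, was in 6.02% of all promoter windows and 6.86% of all genes, and in 5 of 17 matched clock genes. Among the 3 matched genes that fell, Ciart held it, at 3 places. They are shown since Ciart had the largest fall of the list, with the E-box in capitals, from the minus strand at chr3:95882329-95882354, chr3:95882271-95882296 and chr3:95882257-95882282.
Ciart, farthest from the start: catctagagtCACGTGttgccggtaa
Ciart, middle: cagggggaggCACGTGcagaaccgca
Ciart, nearest to the start: tgcagaaccgCACGTGtctgggaggg

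Of 22 genes of cholesterol synthesis and uptake tested, 6 were lower, against 1.30% of all genes, and none higher, with a median log2 fold change of -0.28. Idi1, which isomerises the isoprenoid unit, was at 51.5, 71.3 and 51.0 CPM, a log2 fold change of -0.48 (-0.58 to -0.38). Fdps, Cyp51, Fdft1 and Sqle, enzymes of later steps, fell by between 0.33 and 0.41. DR was the highest library for the list as a whole, at 1186, 1355 and 1134 CPM. Srebf2 had the most counts, and no member passed at either variation between pools. Hmgcs1 was listed at 0 in all 15 libraries of the series at both of its loci, which lie on an unplaced sequence, so its level cannot be read and it was not tested. The sterol element TCACCCCAC was in 0.496% of windows and 0.555% of genes, and in 1 of 15 matched genes, Hmgcs1.

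Angptl4 and a mitochondrial carrier gene were among the largest rises of genes averaging 100 counts or more. Angptl4, which encodes an inhibitor of lipoprotein lipase, had 143, 67 and 155 counts and rose by 1.51 (1.10 to 1.96). Slc25a34, a member of the mitochondrial carrier family, had 217, 105 and 231 counts and rose by 1.44. For both, DR was the lowest of the 3 libraries.

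Of 20 glucocorticoid targets 7 were higher, against 3.75% of all genes, and none lower, with a median of 0.15. Cdkn1a, the gene of the cell cycle inhibitor p21, was at 8.32, 9.61 and 20.6 CPM, a log2 fold change of 1.10 (0.89 to 1.31). Plin4, a lipid droplet protein gene, had 553, 306 and 474 counts and rose by 0.94. The metallothionein genes Mt1 and Mt2 rose by 0.74 and 0.47, with Mt1 at 153, 115 and 192 CPM. Pdk4, whose product restrains pyruvate use, rose by 0.47, Arrdc2 by 0.37 and the merged locus of Slx1b and Sult1a1 by 0.59. Fkbp5 and Tsc22d3, widely used markers of receptor activity, were not among them. Fkbp5 had 3036, 2739 and 2044 counts, not scaled for the unlike library totals, and Tsc22d3 stood at 72.2, 89.2 and 84.8 CPM. Cdkn1a and Plin4 stayed past the call at a variation of 0.1, and Mt1 and the Sult1a1 locus also at the estimated variation.

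**Figure D3:**
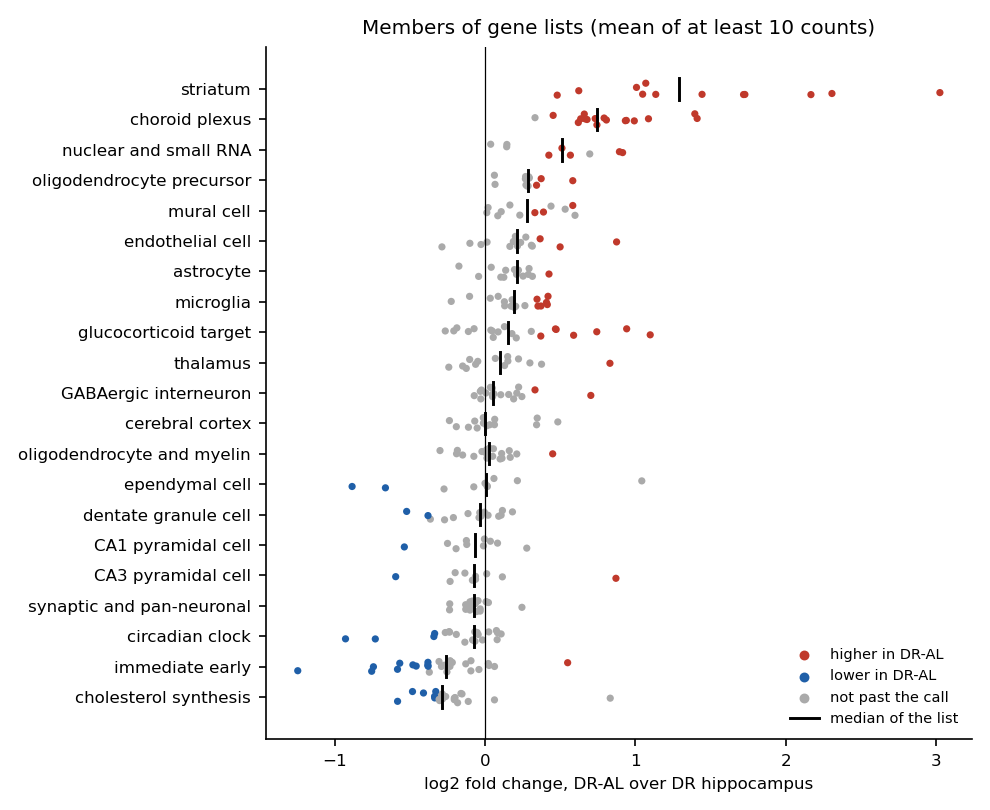
Log2 fold changes of DR-AL over DR in the hippocampus for list members averaging 10 counts or more, 1 point per gene, with the list's median as a bar. The striatum and choroid plexus lists lie to the right of 0 and the cholesterol and immediate early lists to the left.

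In the dentate granule cell list 2 of 15 genes were lower, Lct and Npnt, against 1.30% of all genes, and none higher, with a median of -0.03. Prox1, the transcription factor that maintains granule cell identity, was at 116, 120 and 104 CPM and did not pass. Of 10 CA1 genes 1 was lower and none higher, against 1.30% and 3.75% of all genes, and the median was -0.07. Of 10 CA3 genes Coch was higher and Iyd lower, against 3.75% and 1.30% of all genes, with a median of -0.07. Neurod6, which is in none of these lists, fell as well. Of 9 CA2 genes 2 were higher, Pcp4 and Sostdc1, against 3.75% of all genes, with a median of 0.19, and Sostdc1 is also in the choroid plexus list. Of the granule cell, CA1, CA3 and CA2 lists, no gene passed at a variation of 0.1. Coch and Sostdc1 alone passed at the estimated variation. None of 20 synaptic and pan-neuronal genes passed, and their sum was 21753, 21642 and 21003 CPM. Camk2a, the synaptic kinase, stood at 3965, 3986 and 4049 CPM with a log2 fold change of 0.02 (0.01 to 0.03).

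Of 18 interneuron genes 2 were higher, Slc32a1 and Sp8, against 3.75% of all genes, with a median of 0.05. Neither gene passed at either variation between pools. Slc32a1, the vesicular GABA transporter gene, was at 71.1, 68.5 and 86.2 CPM and rose by 0.33. Parvalbumin shares a locus with Ift27 and cannot be split from it. Among 15 activity-dependent secreted factors 4 were higher, Penk, Tac1, Pdyn and Crh, against 3.75% of all genes, with a median of 0.11. Penk and Tac1, both also in the striatum list, were the members that passed at either variation between pools. Bdnf, the neurotrophin gene, was at 51.1, 57.3 and 53.5 CPM with a log2 fold change of -0.10 (-0.20 to 0.00). Of 10 newborn neuron genes Eomes was higher, with 53, 35 and 55 counts, against 3.75% of all genes, and the median was 0.01. Eomes did not pass at either variation between pools. None of 15 cell division genes passed, with a median of 0.19, and Mki67 had 80, 37 and 39 counts.

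None of 26 glutamate receptor genes passed, with a median of -0.06. Of 19 GABA receptor genes 3 were higher, Gabrg1, Gabrq and Gabre, against 3.75% of all genes, with a median of 0.01. None of the 3 passed at either variation between pools. Gabrq and Gabre had 31 and 3 counts in DR and 57 and 12 in DR-AL. Of 39 neuromodulator receptor genes 6 were higher, against the same 3.75%, with a median of -0.05. These were Drd1a and Drd2 of the striatum list, the serotonin receptor gene Htr2c at 73.9, 67.9 and 89.4 CPM, the leptin receptor gene Lepr, the incretin receptor gene Glp1r, and Adra2a. Lepr had 249, 176 and 195 counts and Glp1r 245, 188 and 211. Of the 6 receptor genes called higher, Drd1a and Drd2 alone passed at both variations between pools, and the others at neither.  The corticosteroid receptor genes Nr3c1 and Nr3c2 had log2 fold changes of -0.11 and -0.27 and did not pass.

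Of 17 microglial genes 6 were higher, against 3.75% of all genes, and none lower, with a median of 0.19 and sums of 583, 548 and 621 CPM. The complement genes C1qa and C1qb were among them, with C1qb at 37.4, 33.4 and 44.5 CPM and a log2 fold change of 0.41 (0.29 to 0.54). Cx3cr1, Tyrobp, P2ry13 and Cd68 rose by between 0.35 and 0.42, whereas P2ry12 stood at 43.9, 45.3 and 42.2 CPM. Of the microglial, astrocyte, oligodendrocyte, precursor and mural cell lists, no gene passed at either variation between pools. Of 15 astrocyte genes Gjb6, a gap junction gene, was higher, against 3.75% of all genes, and the median was 0.21. Slc1a2, the main glutamate transporter gene, was at 3136, 3176 and 3784 CPM, or 0.25 (0.24 to 0.27) on the log2 scale, short of the fold.

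Of 19 oligodendrocyte and myelin genes Mobp was higher, at 480, 372 and 508 CPM, against 3.75% of all genes, with a list median of 0.03. Mbp had the most counts of the list. Of 13 oligodendrocyte precursor genes 3 loci were higher, against 3.75% of all genes, that of Olig1 and Olig2 together, Olig2 and Cspg4, with a median of 0.29. In the endothelial list 3 of 15 were higher, against 3.75%, with a median of 0.22. Cldn5, which encodes a tight junction protein of the blood-brain barrier, was at 23.2, 17.6 and 32.2 CPM, a log2 fold change of 0.87 (0.72 to 1.03), and passed at both variations. Pecam1 and Ly6c1 rose by 0.37 and 0.50. Of 12 mural cell genes 3 were higher, against 3.75%, with a median of 0.28. They were Acta2, Myh11 and Cspg4, the last also a member of the precursor list. None of 7 loci of the blood list passed. The haemoglobin alpha locus, which joins Hba-a1 and Hba-a2, was at 26.6, 13.4 and 12.5 CPM.

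Several transcripts that stay in the nucleus were higher. Of 10 nuclear and small RNA loci tested 5 were higher, against 3.75% of all genes, with a median of 0.47 and sums of 1313, 1414 and 1842 CPM. Malat1 was at 150, 177 and 238 CPM and rose by 0.42 (0.37 to 0.48). Snhg11 was at 205, 226 and 335 CPM and rose by 0.57 (0.52 to 0.61). The Meg3 locus, merged with 2 microRNA genes, was at 399, 473 and 674 CPM and rose by 0.51. The Mirg locus, from the same imprinted cluster, had 121, 122 and 183 counts, and Rpph1 had 72, 32 and 49. Neat1 did not pass, at 45.2, 44.1 and 45.2 CPM. The Mirg locus and Snhg11 passed at the estimated variation, and none did at 0.1.

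None of 78 cytosolic ribosomal protein genes and none of 78 respiratory chain genes passed, with medians of 0.04 and -0.01. Among 18 heat shock genes and 18 endoplasmic reticulum chaperones none passed, with medians of -0.09 and 0.10. Of 22 interferon-stimulated genes B2m was higher by 0.33, against 3.75% of all genes called higher, and the median was 0.05. Of 39 replication-dependent histone loci 1 was higher, against 3.75% of all genes, with a median of 0.20, or 0.29 with genes at 0 set to their bound. Neither this locus nor B2m passed at either variation between pools.

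Of 29 genes of insulin and nutrient signalling 2 were higher, Igfbp2 and Txnip, against 3.75% of all genes, with a median of 0.05. Neither gene passed at either variation between pools. Txnip, a glucose-responsive gene, was at 35.2, 35.3 and 46.7 CPM and rose by 0.41 (0.29 to 0.53). The insulin receptor gene Insr was at 53.8, 55.8 and 58.3 CPM and Mtor at 112, 115 and 110 CPM, and neither passed.

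The study asked about DNA methylation, so its enzymes and readers were listed too. Of 17 genes 2 were lower, Mbd4 and Gadd45b, against 1.30% of all genes, and none higher, with a median of -0.03. Neither gene passed at either variation between pools. Mbd4, a glycosylase gene that acts on deaminated methylcytosine, had 311, 309 and 173 counts and a log2 fold change of -0.52 (-0.80 to -0.25). The methyltransferase genes Dnmt1 and Dnmt3a were at 50.2 and 55.4 CPM in DR-AL against 51.6 and 53.0 in DR, and neither passed. Among 11 genes that the study names 3 were higher, against 3.75%, and none lower. These were Ttr and Kl, also in the choroid plexus list, and Crh, also in the hypothalamus list, and the median over the 11 was -0.08, or -0.02 with genes at 0 set to their bound. Crh, the gene of corticotropin-releasing hormone, had 72, 36 and 58 counts, or 1.78, 1.15 and 2.31 CPM. Its log2 fold change was 0.99 (0.38 to 1.64). Hsph1 was at 268, 305 and 301 CPM with a log2 fold change of -0.02 (-0.06 to 0.02). Nts had 307, 246 and 180 counts and Pomc 21, 22 and 12, and no difference was detectable at this depth.

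Arc and Egr1 were among the 5 largest falls in CPM of called genes, with 3 further loci. Ubb, a polyubiquitin gene, was at 503, 491 and 341 CPM, a log2 fold change of -0.52 (-0.56 to -0.49). The locus that joins Chgb and 1110034G24Rik was at 761, 811 and 612 CPM and fell by 0.41. Neurod6 had a log2 fold change of -0.45 (-0.50 to -0.40). Among the largest log2 falls of called genes averaging 100 counts or more, Myoc, the myocilin gene, was at 22.4, 22.0 and 13.2 CPM and fell by 0.73. Vwc2l fell by 0.71. Calhm2, a channel gene, had 167, 157 and 72 counts and fell by 0.81. In all of these genes DR-AL was the lowest of the 3 libraries.

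Among called rises in CPM, Fam107a was at 435, 439 and 672 CPM, a log2 fold change of 0.61 (0.58 to 0.65). Cst3, the cystatin C gene, was at 980, 847 and 1115 CPM and rose by 0.40. A second locus with the name Filip1l, on the other strand, was at 1537, 1655 and 2344 CPM and rose by 0.50. Among genes averaging 100 counts or more, the 2208 of lowest GC share had a median log2 fold change of -0.02, and the 2208 of highest GC share 0.04. Of the former 2.58% were higher and of the latter 5.62%. Of the 2209 with the shortest transcripts 1.58% were lower, and of the 2208 with the longest 0.272%.

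Other scalings and units ended some of the calls. With DESeq size factors (3.50% of genes higher, 1.39% lower) Acta2, Adra2a, B2m and Slc32a1 no longer passed, and with TMM factors (3.53% and 1.38%) all of these but B2m. At equal depth (3.69% and 1.19%) Adra2a, Cartpt, Iyd, P2ry13, Rpph1, Slc32a1, Sp8, Sqle and a second Wee1 locus on the other strand no longer passed. By FPKM with a pseudocount of 0.1 and no counting test (11.7% and 7.24%) Adra2a, C1qa, Cd68, Cst3, Cyp51, Igfbp2, Nr1d2, both Olig2 loci, Slc32a1 and Sqle did not reach the fold.

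In the hypothalamus of the same groups, 547 genes (2.88%) were higher and 1315 (6.92%) lower in DR-AL than in DR. The striatum list had 2 higher and 5 lower of 12 there, with a median of -0.21 and sums of 544, 514 and 455 CPM. The choroid plexus list had 3 higher and 5 lower of 17, with a median of -0.29. The immediate early list had 2 higher and 12 lower of 28, with a median of -0.28, and the clock list 9 lower of 20, with a median of -0.29. Differences between the tissues were not tested. Egr2 had 67 and 25 counts in the DR and DR-AL hypothalamus, a log2 fold change of -1.34, and Gm129 had 683 and 330 counts and -0.98. Dbp stood at 1771 and 930 counts, a log2 fold change of -0.86. Cldn5 had 527 and 840 counts there, a log2 fold change of 0.74, Plin4 1.05 and Cdkn1a 0.93, each past the call in both tissues.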

How the data were processed

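Per the study's methods, the authors trimmed reads, aligned them to mm10 with Strand software, removed duplicate reads and quantified with DESeq, while the submitters' notes name mm9 and DESeq2. Of 21384 gene symbols matched to GENCODE M21 on GRCm38, 2907 (13.6%) overlapped the annotated position, so the printed locus positions are those of the table, named mm9 after the notes, with starts moved to count from 1. The authors deposited raw counts per locus, whole numbers with no scaling. They also deposited FPKM values, whose scaling between libraries is not stated. All 30 columns of the table were read, and FPKM served as an alternative. Libraries were grouped by tissue and diet as labelled, with 1 library a group. Loci with no gene name took 0.504%, 0.478% and 0.503% of the AL, DR and DR-AL hippocampus counts and were left out of totals and main tests, and 677 loci carry several names.

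Counts were divided by the total on named loci. The Z test compared square roots of these shares with Poisson variance for genes with at least 1 count in the pair, with Benjamini-Hochberg adjustment over all of them, and log2 fold changes used a pseudocount of 0.5. Intervals are exact Clopper-Pearson intervals of count ratios, and bounds of genes at 0 use 3 counts. The Z test was also run on simulated data, and the outcome is not reported or used here. The alternatives were DESeq size factors, TMM, totals without the 10 most abundant genes, a limit of 10 counts on the mean, edgeR's exact test with preset or estimated dispersion, folds of 1.5 and 2, equal depth, FPKM with pseudocounts of 0.1 and 1, and a pseudocount of 5.

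Genes named in the text are the 15 with the largest rise and the 15 with the largest fall among called genes averaging 100 counts or more, the 5 with the largest rise and fall in CPM, and members of 40 lists. The lists cover cell types and regions (dentate granule, CA1, CA3, CA2, interneuron, synaptic and pan-neuronal, astrocyte, microglia, oligodendrocyte and myelin, oligodendrocyte precursor, endothelial, mural, meningeal fibroblast, choroid plexus, ependymal, blood, thalamus, cerebral cortex, striatum, hypothalamus, newborn neuron) and processes (cell division, immediate early, secreted factors, glucocorticoid targets, clock, cholesterol, glutamate, GABA and neuromodulator receptors, heat shock, chaperones, interferon, DNA methylation, insulin, nuclear RNA, genes of the study, ribosomal protein, respiratory chain, histone). Rn45s, the locus with the most counts, was named after its values were seen. Members and lists were chosen with earlier results of these data known. Promoters came from RefSeq (GRCm38.p6). Tools were Python 3.11.15, numpy 2.4.6, pandas 2.3.3, scipy 1.17.1, matplotlib 3.10.9, R 4.3.3 and edgeR 4.0.16.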

Additional observations from a re-analysis of the deposited data

Results flagged for a closer look

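Neurod6 drew attention because its called log2 fold change of DR-AL over DR was -0.45 in the hippocampus and 0.79 in the hypothalamus, where DR had 35 of its counts and DR-AL 58. With 1 library per tissue and diet, this difference between tissues was not tested.

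Loci without a gene name were outside the main comparison. Of 6037 such loci tested on their own, 25 (0.414%) were higher in DR-AL and 11 (0.182%) lower. All 7 called loci with a mean of at least 100 counts were higher. The one with the most counts, XLOC_031312, had 13935, 7972 and 8846 counts (AL, DR, DR-AL), a log2 fold change of 0.46, and XLOC_025625 had 395, 159 and 250 counts and 0.96.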

How the results depend on the processing

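Genes higher and lower in DR-AL, 687 and 238 in the main test, moved with the error, the fold and the unit used. Exact tests of edgeR gave 54 and 4 with a coefficient of variation of 0.1 and 122 and 16 with the estimated one, tests built to allow more error than counting. Folds of 1.5 and 2 gave 339 and 130, and 178 and 98, by construction fewer. FPKM with a pseudocount of 0.1 and no counting test gave 2149 and 1325, and the cause was not tested. Other alternatives named at the start gave 499 to 706 higher and 187 to 255 lower. Leaving out Scd1 gave 690 and 236, and 1 locus per symbol 673 and 232, both chosen after seeing the data, as were the edgeR tests of named genes. Of 136 named loci past the call, none reversed under any alternative. With DESeq factors 132 stayed past it, with TMM 133, at equal depth 127, with FPKM 125 (pseudocount 0.1) and 105 (pseudocount 1), and with edgeR 32 (variation of 0.1) and 56 (estimated). A mean of at least 10 counts dropped the 4 called genes under it. The striatum median was 1.15 and 0.87 with FPKM at pseudocounts of 0.1 and 1, the choroid plexus median 0.62 at 1, and the hypothalamus median 0.67, 0.19 and, with a pseudocount of 5, 0.66. No paired analysis was possible because each tissue and diet gave 1 pooled library, so no replicate could be left out either.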
